A study of Schmidtea mediterranea with 8 samples.

Results

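The genes *if-1* (contig dd_Smed_v4_12254_0_1) and *cali* (contig dd_Smed_v4_9961_0_1) mark glia of the planarian *Schmidtea mediterranea*, and their transcript levels were read from RNA sequencing of cephalic ganglia and head fragments. Both contigs were taken by the identifier that the study pairs with each gene, and they are 2 of the 38633 contigs in each deposited table. No other contig of the tables shares the assembly component of either gene, so no second contig carried reads under the same component number. The contigs belong to a transcriptome assembly, and no genome coordinates are given for them. Both genes entered the study through their response in these same libraries and their enrichment in cephalic ganglia, so the p-values below describe these libraries and are not independent evidence of either.

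Glia support neurons and take up transmitter at synapses. In planarians the cells that carry *if-1* and *cali* transcripts lie mainly in the neuropil, the region of neurites inside the ring of neuron bodies, next to neurons that make the Hedgehog ligand. Hedgehog (Hh) binds the receptor Patched (Ptc). Without ligand, Ptc holds back the transmembrane protein Smoothened, so loss of *hh* lowers pathway activity and loss of *ptc* raises it. *if-1* encodes a cytoplasmic intermediate filament protein, a part of the cytoskeleton. The product of *cali* is known only as a prediction from its sequence. It has a partial likeness to a protocadherin, of a family of cell adhesion proteins, but the study finds no clear cadherin domains in it.

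Libraries came from 4 groups of 2. *hh(RNAi)* CNS, *ptc(RNAi)* CNS and control CNS were cephalic ganglia (central nervous system, CNS) dissected from large S2F1L3F2 sexual animals after brief acid fixation, following 12 feedings of double-stranded RNA (dsRNA) against *hh*, *ptc* or *unc-22*, a *C. elegans* gene that planarians lack. Control head fragments were amputated from CIW4 asexual animals after 6 feedings of the *unc-22* dsRNA. All feedings were 4 days apart, and each library was made from 0.2 µg of RNA for CNS and 1.0 µg for head fragments. Strain, number of feedings, fixation and RNA input therefore changed together with the tissue and cannot be told apart from it. Animal ages and the number of animals pooled were not given in the sources used here. The libraries were prepared in duplicate with different indexes, and nothing says that duplicates came from separate animals, so p-values measure the spread between these libraries, which may be technical. RNAi lowers a transcript without removing the gene, and in these tissue samples fewer glia and less RNA per glial cell cannot be told apart.

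The deposited values are group means of normalized reads, which are reads divided by a size factor for each library. Whole reads of each library were solved from these means, and the 2 libraries of a group are called a and b, with no pairing of letters across groups. Between 11479783 and 13215443 reads lay on contigs in the CNS libraries, and 18914547 and 15880288 in the head libraries. The least covered value of either gene was 411 reads, for which counting alone gives an error of 4.93%. The *hh* contig itself had 38.5 and 80.0 normalized reads in *hh(RNAi)* CNS, against 242 and 211 in control CNS. The *ptc* contig had 189 and 198 normalized reads in *ptc(RNAi)* CNS, against 288 and 292 in control CNS. Each targeted transcript was thus lower than control in the libraries fed its own dsRNA, although the limma test described below called neither. DESeq2 called *hh* lower and did not call *ptc*. Separation of duplicates is common, since 15.7% of tested contigs were lower in *hh(RNAi)* CNS without overlap. The log2 fold change of *ptc* in *ptc(RNAi)* CNS was only -0.58, and *ptc* fell further in *hh(RNAi)* CNS. The study counts the *ptc* gene among the transcriptional targets of Hh signaling, so its level mixes knockdown with pathway activity. These values alone therefore neither establish knockdown of *ptc* nor show that it failed. By in situ hybridization in asexual animals, the study reports more cells with *if-1* and *cali* transcripts after *ptc* RNAi, mostly outside the neuropil. The study names other glial genes, but the sources used here do not pair them with contigs, so the glial identity of *if-1* and *cali* was not checked against further markers.

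On one scale over all 8 libraries, *if-1* had 2433 and 1835 normalized reads in *hh(RNAi)* CNS and 9339 and 11164 in *ptc(RNAi)* CNS. It had 7432 and 11113 in control CNS and 322 and 349 in control head fragments. *hh(RNAi)* CNS libraries lay below all other CNS libraries and above both head libraries. The group means of *if-1* were 2134 ± 423 in *hh(RNAi)* CNS, 10252 ± 1290 in *ptc(RNAi)* CNS, 9273 ± 2603 in control CNS and 336 ± 19.7 in control head fragments (SD, n = 2 each).

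*cali* had 1186 and 1089 normalized reads in *hh(RNAi)* CNS and 9048 and 9648 in *ptc(RNAi)* CNS. It had 7651 and 8418 in control CNS and 459 and 502 in control head fragments. The group means of *cali* were 1138 ± 68.5 in *hh(RNAi)* CNS, 9348 ± 424 in *ptc(RNAi)* CNS, 8035 ± 542 in control CNS and 480.2 ± 30.3 in control head fragments (SD, n = 2 each). Both genes thus had the same order of mean level, with *ptc(RNAi)* CNS first, then control CNS, *hh(RNAi)* CNS and control head fragments. The neighbours *ptc(RNAi)* CNS and control CNS overlapped for *if-1* and were 1.16-fold apart without overlap for *cali*. In the test of these groups below, 17.2% of contigs separated upward in the same way. Relative to control CNS, *hh(RNAi)* CNS held 23% of the *if-1* level and 14.2% of the *cali* level. *hh(RNAi)* CNS still held 6.36 times the *if-1* level and 2.37 times the *cali* level of control head fragments, values set side by side without a test.

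**Figure D1:**
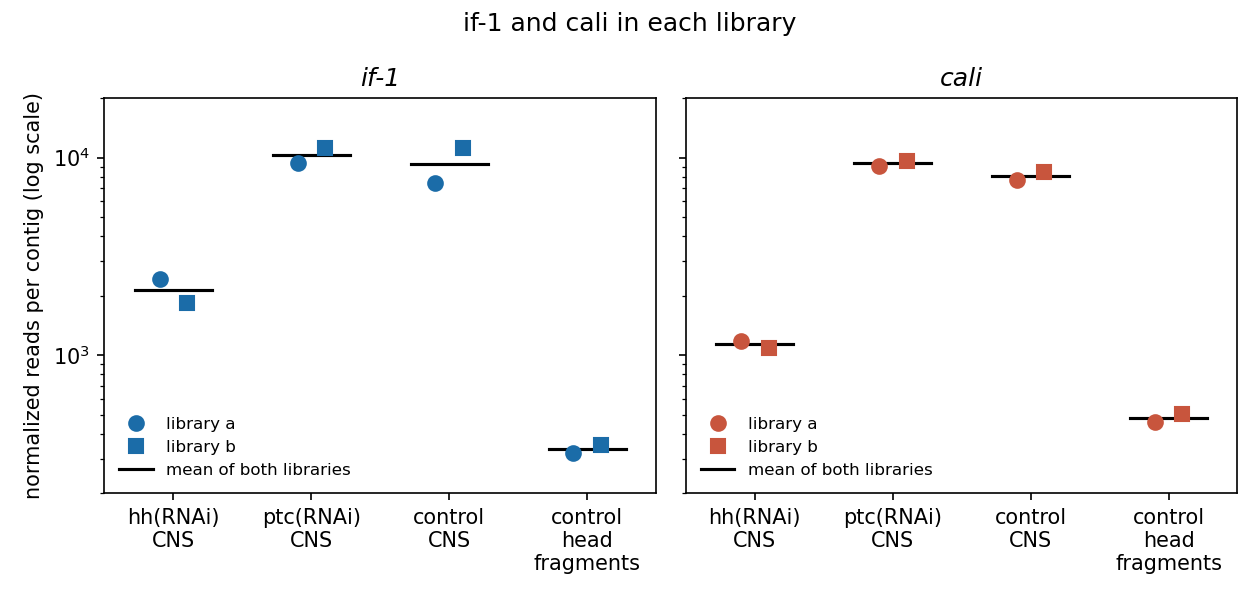
Normalized reads of *if-1* (left) and *cali* (right) in each library on a log scale, with circles for library a, squares for library b and bars for the mean of both. *hh(RNAi)* CNS libraries sit between 1835 and 2433 for *if-1* and between 1089 and 1186 for *cali*, below the other CNS libraries and above the head fragments; the scale is per contig and does not compare the genes with each other.

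The duplicates differed more for *if-1* than for *cali* in the CNS. In control CNS the libraries were 1.5-fold apart for *if-1* and 1.10-fold apart for *cali*. Of 2441 contigs averaging at least 1000 normalized reads there, 3.73% differed more between these libraries than *if-1* did and 40.6% differed more than *cali* did. The median contig was 1.08-fold apart. In *hh(RNAi)* CNS the duplicates were 1.33-fold apart for *if-1* and 1.09-fold for *cali*, and in *ptc(RNAi)* CNS 1.20-fold for *if-1* and 1.07-fold for *cali*. The median contig at the same minimum was 1.21-fold apart in *hh(RNAi)* CNS and 1.13-fold in *ptc(RNAi)* CNS. In these groups 29.2% and 30.8% of such contigs differed more than *if-1*, and 76.8% and 75.4% more than *cali*. Control head duplicates were 1.09-fold apart for both genes, beside a median of 1.03-fold. Counting error, at most 2.49% for *if-1* in a CNS library, was far smaller than its spread between duplicates there.

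The first comparison asks how loss of Hh ligand changes the glial transcripts in cephalic ganglia. *cali* fell in *hh(RNAi)* CNS, with 1161 and 1024 normalized reads against 7240 and 7959 in control CNS. This was a log2 fold change of -2.80 ± 0.15 (SE), or 6.96-fold lower, with an adjusted p of 0.0350 in limma. Of 12153 contigs tested, limma called *cali* alone lower, 0.00823% of the total. It called 0 contigs higher, where edgeR and DESeq2 likewise called 0, and 276 contigs had an unadjusted p under 0.05 in limma. A contig was called at a Benjamini-Hochberg adjusted p under 0.05 and more than 2-fold on log2(normalized reads + 1), a scale that understates changes of contigs with few reads.

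*if-1* had 2381 and 1724 normalized reads in *hh(RNAi)* CNS, against 7033 and 10508 in control CNS. The groups did not overlap, as for *cali*, and in 15.7% of all tested contigs both *hh(RNAi)* libraries likewise lay below both control libraries. The log2 fold change of *if-1* was -2.08 ± 0.26 (SE), or 4.24-fold lower, and did not pass the limma test (adjusted p = 0.595). DESeq2 on the recovered reads called *if-1* and *cali* lower (adjusted p = 2.46e-11 and 2.92e-53) among 37 contigs called lower, 0.304% of those tested. The edgeR test called *cali* (adjusted p = 0.0422) and not *if-1* (adjusted p = 0.965). A limma fit over all 8 libraries also called *if-1* (adjusted p = 0.0488), and over the alternatives tried its adjusted p ranged from 2.46e-11 to 0.965. The call of *cali* was lost when libraries were scaled to total reads (adjusted p = 0.0615), without library b of *hh(RNAi)* CNS (adjusted p = 0.0514) and without library b of control CNS (adjusted p = 0.0572), fits in which 1 library stands against 2. Its fold change moved little, with log2 values between -2.89 and -2.71 over all alternatives. An exact permutation test of 2 libraries against 2 cannot give a p below 0.333.

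By size of change, *cali* was the 9th lowest and *if-1* the 31st lowest of the 12153 contigs. Among the 2271 contigs averaging at least 1000 normalized reads, *cali* was 4th lowest and *if-1* 10th lowest. Over all tested contigs the median was -0.019. No tested neuronal contig was as low as *if-1* or *cali*. Of 60 tested contigs of a neuronal panel of 70 that the study compiled, 0 were called in either direction by limma, edgeR or DESeq2, their median log2 fold change was 0.06, and the lowest was -0.83. *chat*, the acetylcholine-synthesizing enzyme, had a log2 fold change of 0.26 ± 0.21 (SE) and *pc2*, a prohormone convertase, one of 0.14 ± 0.18 (SE), neither called. The glycolytic enzyme gene *gapdh* stood at -0.15 ± 0.19 (SE), also not called. The 22 markers of other tissues (neoblasts, gut, muscle, pharynx and others) summed to between 18271 and 20800 normalized reads in *hh(RNAi)* CNS. In control CNS they summed to between 20029 and 24713. Among these markers is *netrin-2*, which is also on the neuronal panel and which the study describes in cells of the neuropil. None of the 22 was at 0 in either group, and limma called 0 of the 13 tested, where edgeR also called 0 and DESeq2 called 1 lower. That 1 was the neoblast (stem cell) marker *smedwi-1*, named after its values were seen, with 759.9 and 739.9 normalized reads in *hh(RNAi)* CNS against 1365 and 1791 in control CNS, and its part in the *if-1* and *cali* values was not tested. With libraries scaled to equal levels of the neuronal panel, the log2 fold changes were -2.81 for *cali* (adjusted p = 0.00704) and -2.09 for *if-1* (adjusted p = 0.129).

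**Figure D2:**
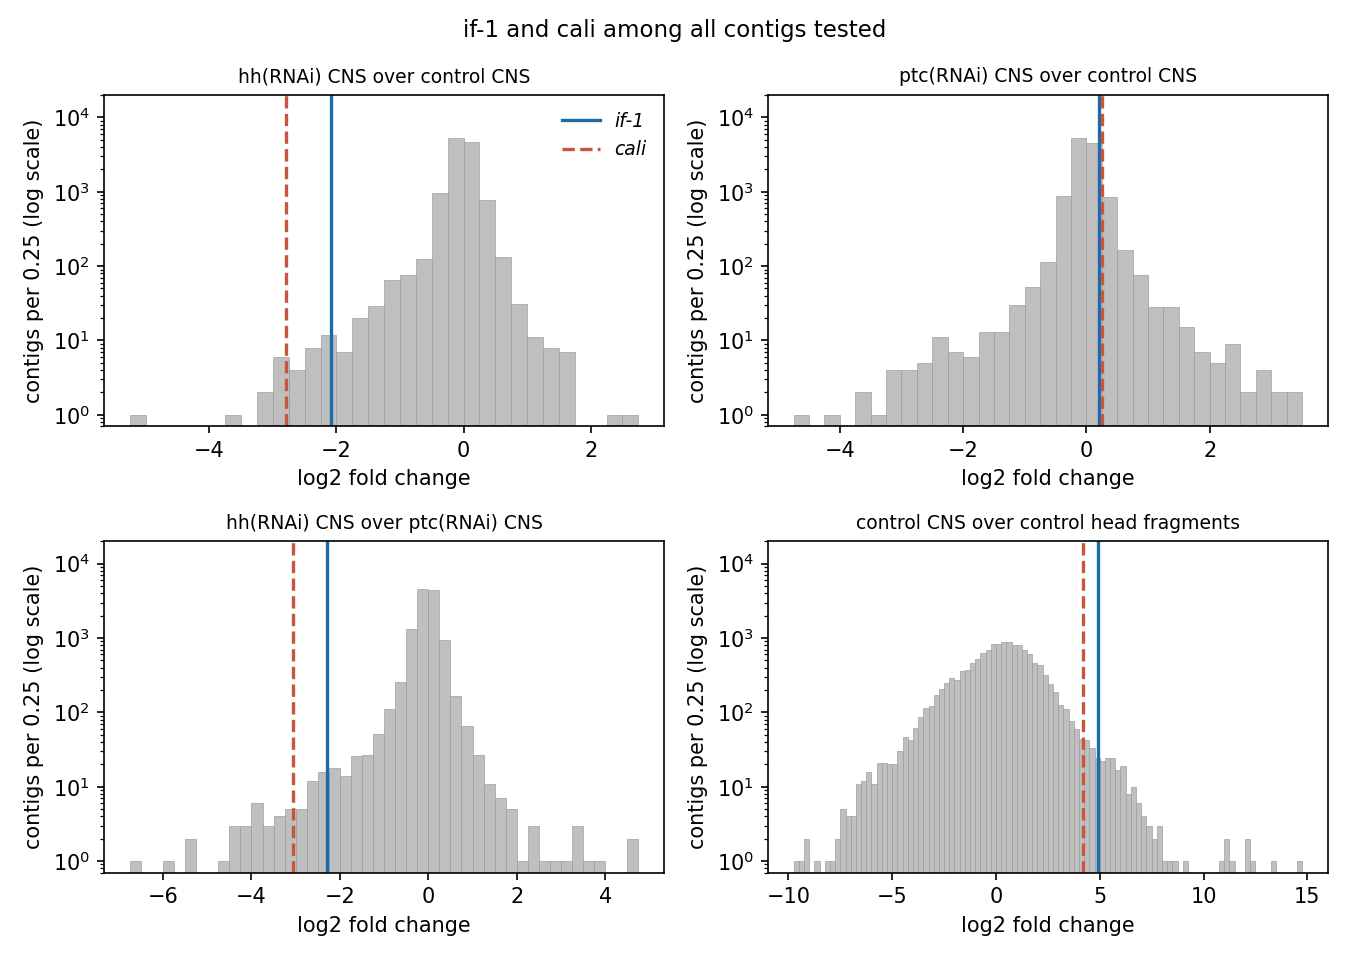
Number of tested contigs per 0.25 of log2 fold change (log scale) in the 4 comparisons, with *if-1* as a solid line and *cali* as a dashed line. Both genes lie in the lower tail in *hh(RNAi)* CNS over control CNS (-2.08 and -2.80) and over *ptc(RNAi)* CNS (-2.30 and -3.07), near the bulk in *ptc(RNAi)* CNS over control CNS (0.20 and 0.26), and in the upper tail in control CNS over control head fragments (4.89 and 4.20).

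The second comparison asks whether loss of the Ptc receptor, which raises pathway activity, changes the same transcripts. *cali* had 8648 and 9504 normalized reads in *ptc(RNAi)* CNS, against 7267 and 7936 in control CNS. Both *ptc(RNAi)* libraries lay above both controls, as in 17.2% of all tested contigs. The log2 fold change was 0.26 ± 0.13 (SE), with a 95% interval of -0.047 to 0.56, and was not called by limma (adjusted p = 0.824), edgeR or DESeq2. *if-1* had 8926 and 10997 normalized reads in *ptc(RNAi)* CNS, against 7059 and 10477 in control CNS, and the groups overlapped. Its log2 fold change was 0.20 ± 0.21 (SE), with a 95% interval of -0.31 to 0.72, and was likewise not called (adjusted p = 0.936). Without library a of control CNS the *if-1* value was -0.081, so its sign rested on that library. Both upper bounds lay below a 2-fold rise, which is 1 on the log2 scale. This comparison and the first share their control libraries.

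Other contigs did move in *ptc(RNAi)* CNS. Of 12121 tested, limma called 32 higher (0.264%) and 9 lower, and the count was unstable, with between 7 and 115 called when 1 library was left out. By size, 13.2% of the tested contigs had a larger log2 fold change than *if-1* and 9.49% a larger one than *cali*. One marker of another tissue rose, the gland marker *mag-1*, with 1217 and 1141 normalized reads in *ptc(RNAi)* CNS against 428 and 447.3 in control CNS (log2 fold change 1.43 ± 0.11, SE, limma adjusted p = 0.0109). The 22 other-tissue markers summed to between 26164 and 27992 normalized reads in *ptc(RNAi)* CNS and between 20029 and 24713 in control CNS, with none at 0. Of 14 tested, limma and edgeR called 1 higher and DESeq2 called 2 higher, *mag-1* and *smedwi-1*. Their part in the *if-1* and *cali* values was not tested.

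A direct comparison of *hh(RNAi)* CNS with *ptc(RNAi)* CNS leaves out the shared controls and is the test of whether the responses to the 2 dsRNAs differed. *cali* fell in *hh(RNAi)* CNS, with 1159.9 and 1033 normalized reads against 8814 and 9568 in *ptc(RNAi)* CNS. The log2 fold change was -3.07 ± 0.14 (SE), or 8.38-fold lower, with a limma adjusted p of 0.0268. It was 1 of 13 contigs called lower among 12127 tested, 0.107%, and had the lowest p of all. By size of change, *cali* was only the 27th lowest and *if-1* the 58th lowest. *if-1* had 2379 and 1740 normalized reads in *hh(RNAi)* CNS, against 9097 and 11070 in *ptc(RNAi)* CNS, with no overlap for either gene, as in 19.5% of tested contigs. Its log2 fold change was -2.30 ± 0.21 (SE), or 4.93-fold lower, and fell short of the threshold in limma (adjusted p = 0.0652) and edgeR (adjusted p = 0.0968). DESeq2 called *if-1* (adjusted p = 3.19e-17) among the 134 contigs, 1.1%, that it called lower. With any 1 of the 4 libraries left out, *if-1* had a limma adjusted p between 1.45e-05 and 0.0396 (0.0319 without library a and 0.0396 without library b of *ptc(RNAi)* CNS, and 1.45e-05 without library a and 0.000127 without library b of *hh(RNAi)* CNS). These fits set 1 library against 2, so that their spread comes from the duplicates of 1 group and the lone library is assumed to vary like them. The number of contigs called grew with it, to between 27 and 267, and the lower p of *if-1* in them is not read as a call. Among the alternatives tried, the *cali* call was lost without the minimum for expression (adjusted p = 0.0608). The 22 other-tissue markers summed to between 18271 and 20800 normalized reads in *hh(RNAi)* CNS and between 26164 and 27992 in *ptc(RNAi)* CNS, with no overlap and none at 0. Of 13 tested, limma and edgeR called 0 and DESeq2 called 1 lower, the neoblast (stem cell) marker *smedwi-1*. It had 759 and 747 normalized reads in *hh(RNAi)* CNS against 4412 and 2904 in *ptc(RNAi)* CNS, a log2 difference of -2.25 ± 0.23 (SE, limma adjusted p = 0.0684). Their part in the *if-1* and *cali* values was not tested.

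The fourth comparison gives the enrichment of both transcripts in dissected ganglia relative to whole head tissue. Both genes were far higher in control CNS. *if-1* had 8455 and 12607 normalized reads in control CNS, against 332.005 and 362 in control head fragments. *cali* had 8705 and 9549 normalized reads in control CNS, against 474 and 519 in control head fragments. The log2 fold changes were 4.89 ± 0.20 (SE) for *if-1* and 4.20 ± 0.085 (SE) for *cali*, or 29.7-fold and 18.3-fold, with limma adjusted p of 5.49e-05 for *if-1* and 1.91e-05 for *cali*. The background was high, since limma called 4418 of 13494 contigs higher (32.7%) and 3001 lower. The split differed between tools, at 3465 higher and 3667 lower in edgeR and 3424 higher and 3696 lower in DESeq2. In 54.7% of contigs both control CNS libraries lay above both head libraries. Over all tested contigs the median log2 value was 0.32 under this scaling, and relative to it *if-1* stood at 4.57 and *cali* at 3.88. By size, *if-1* was 165th highest and *cali* 264th highest.

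Neuronal markers were also higher in control CNS, and both glial genes stood above most of them. Of 62 tested contigs of the neuronal panel, 51 were called higher and 3 lower, with a median log2 fold change of 2.54. Of those 62, 50 had a lower log2 fold change than *if-1* and 46 a lower one than *cali*. *chat* stood at 2.81, *pc2* at 2.66 and *syn* (a synaptic vesicle protein) at 1.41, all called higher. With libraries scaled to equal levels of this panel, the log2 fold changes shrank to 2.37 for *if-1* (adjusted p = 3.25e-05) and 1.67 for *cali* (adjusted p = 7.56e-06), both still called. Taken as a sum, the other-tissue markers went the other way, with none at 0. The sums were between 20029 and 24713 normalized reads in control CNS against 106789 to 107642 in control head fragments. Of 16 tested, limma called 10 lower and 3 higher, beside 3001 lower and 4418 higher of all 13494 contigs. The highest of the 3 was *netrin-2*, at a log2 fold change of 2.50, which also counts in the neuronal panel. DESeq2 called 11 of the 16 lower and 2 higher, beside 3696 lower and 3424 higher of all contigs. How far the smaller share of other tissues sets the enrichment was not tested.

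Within a library the ratio of *cali* to *if-1* needs no scaling between libraries, and it asks whether both genes moved by the same amount. In reads, this ratio was 0.488 and 0.594 in *hh(RNAi)* CNS, 0.969 and 0.864 in *ptc(RNAi)* CNS, 1.03 and 0.757 in control CNS, and 1.43 and 1.44 in control head fragments. Contig lengths were not given, so the ratio compares groups and not the abundance of the genes. Both *hh(RNAi)* libraries had a lower ratio than every other library. On the log2 scale *cali* minus *if-1* averaged -0.89 ± 0.20 in *hh(RNAi)* CNS and -0.18 ± 0.31 in control CNS (SD, n = 2 each), a difference of -0.71, with a two-sided exact permutation p of 0.333, the smallest that 2 against 2 can give. Against *ptc(RNAi)* CNS, at -0.13 ± 0.12 (SD, n = 2), the difference was -0.77, again with an exact permutation p of 0.333. *ptc(RNAi)* CNS and control CNS overlapped and differed by 0.051 (exact permutation p = 1). The exact permutation test was the only one run on this difference.

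**Figure D3:**
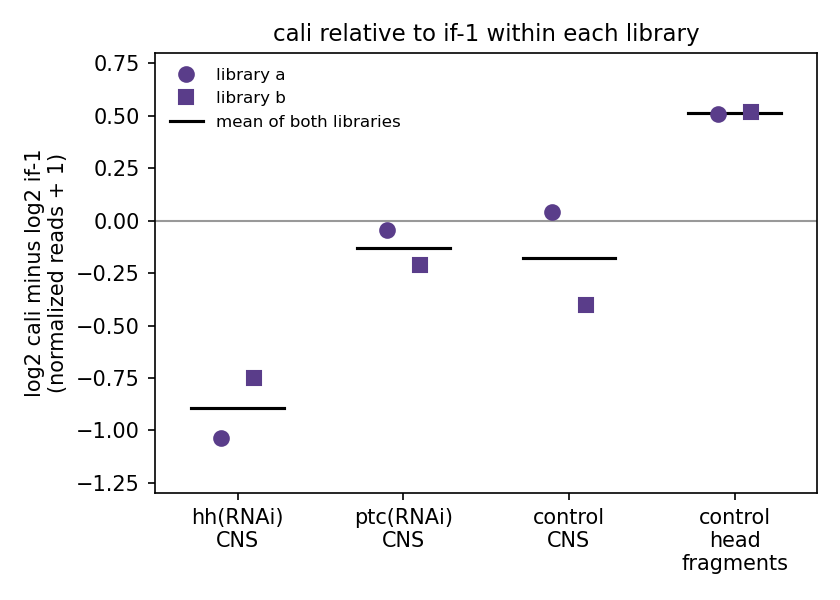
Difference between log2 *cali* and log2 *if-1* in each library, with circles for library a, squares for library b and bars for the mean of both; 0 means equal normalized reads. *hh(RNAi)* CNS averages -0.89 and control CNS -0.18, with both *hh(RNAi)* points below all others.

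Other components of the pathway gave a background for these changes. The list holds the ligand gene *hh*, the receptor gene *ptc*, *smo* (Smoothened, the transducer that Ptc inhibits), *sufu* (Suppressor of fused, an inhibitor of Gli factors) and the transcription factor genes *gli-1*, *gli-2* and *gli-3*. Of the 7 contigs, 5 passed the expression minimum, *gli-3* averaged under 100 normalized reads, and *gli-2* had at most 1 read in a CNS library. In *hh(RNAi)* CNS over control CNS, limma called 0 of the 5 in either direction, with a median log2 fold change of -0.013 beside -0.019 for all contigs. The edgeR test likewise called 0, and DESeq2 called *hh* lower (adjusted p = 0.00381). *ptc* had 156 and 109.8 normalized reads in *hh(RNAi)* CNS against 286 and 293 in control CNS, or -1.14 ± 0.22 (SE) in log2 fold change, which limma, edgeR and DESeq2 did not call. *smo*, *sufu* and *gli-1* lay between -0.013 and 0.016 in log2 fold change. In *ptc(RNAi)* CNS over control CNS 0 of the 5 were called by the 3 tools, and log2 fold changes ran between -0.58 for *ptc* and 0.28 for *sufu*, with a median of -0.27. The lowest tested pathway contig in *hh(RNAi)* CNS over control CNS was the target *hh* itself, at a log2 fold change of -2.01. That was within the SE of *if-1*, at -2.08 ± 0.26 (SE), while *cali* was lower at -2.80 ± 0.15 (SE). In control CNS over control head fragments *hh* was called higher at 5.61 ± 0.37 (SE, adjusted p = 0.000151) and *gli-1* lower at -2.09 ± 0.08 (SE, adjusted p = 5.05e-05), on the log2 scale by limma. *hh* was thus the only pathway contig above *if-1* and *cali* in that comparison.

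**Figure D4:**
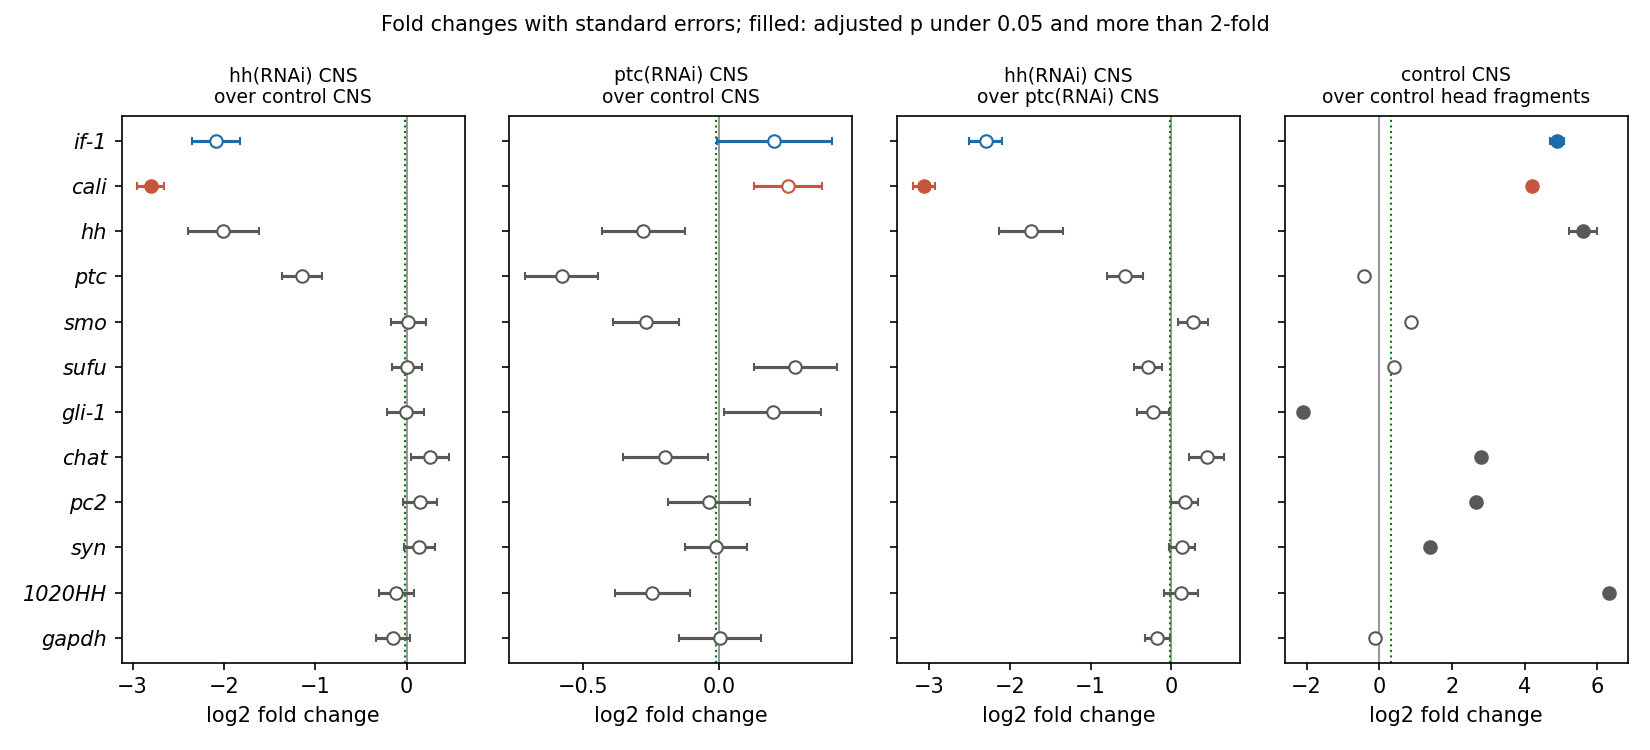
Log2 fold changes with standard errors (bars) of *if-1*, *cali*, the 5 tested Hh pathway contigs, 4 neuronal markers and *gapdh* in the 4 comparisons, with filled points where limma called a change and a dotted line at the median of all tested contigs. Horizontal scales differ between panels; *cali* is the lowest point at -2.80 in *hh(RNAi)* CNS over control CNS and is filled there, while *if-1* at -2.08 is open.

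The study also lists 30 contigs that responded to *hh* or *ptc* RNAi, among them *if-1* and *cali*. That list was chosen on these libraries and is not independent evidence of direction. In *hh(RNAi)* CNS over control CNS, limma called 1 of the 30 lower, which was *cali*, and DESeq2 called 13 lower, against 0.00823% and 0.304% of all tested contigs. Of the other 28, 7 had a lower log2 fold change than *if-1* and 4 a lower one than *cali*. In *ptc(RNAi)* CNS over control CNS, limma called 9 of the 30 higher and 1 lower and DESeq2 18 higher and 1 lower. Of all 12121 tested contigs, limma called 32 higher (0.264%) and 9 lower, and DESeq2 88 higher and 38 lower. The list had a median log2 fold change of 1.31. The 9 that rose include contigs annotated as similar to SCO-spondin, a secreted glycoprotein, at 2.55 ± 0.12 (SE), a peptidyl-prolyl isomerase, a protein-folding enzyme, at 2.35 ± 0.30 (SE), fibrillin-2, an extracellular matrix protein, at 1.29 ± 0.12 (SE), and a pair of GLIPR1-like proteins at 1.39 ± 0.15 and 1.47 ± 0.15 (SE), all in log2 fold change, and 4 have no similarity listed. The contig that fell, at -4.22 ± 0.24 (SE), is annotated as a lysosomal acid lipase. In that comparison 21 of the other 28 had a larger log2 fold change than *if-1*, and 21 a larger one than *cali*. In control CNS over control head fragments, 2 of the other 28 were above each of the 2 genes.

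The pattern of each gene over libraries was compared with those of 12936 contigs averaging at least 100 normalized reads, by Pearson r of log2(normalized reads + 1). Libraries of 1 group share tissue and treatment, so that r mostly follows differences between groups and is given as a description. *if-1* and *cali* had an r of 0.967 with each other over the 8 libraries. *cali* ranked 39th among contigs most like *if-1*, and *if-1* ranked 8th among those most like *cali*. Over the 6 CNS libraries alone their r was 0.986, and each ranked 5th in the other's order. The median r of all contigs with *if-1* was 0.61 over 8 libraries and -0.0018 over the 6.

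One of the contigs most like *if-1* over the 8 libraries (r = 0.989) is annotated in the study's tables as similar to a hematopoietic prostaglandin D synthase of mouse, an enzyme that makes a lipid signal. It is contig dd_Smed_v4_1206_0_1 and stands on the list of 30. It had 2998 and 3000 normalized reads in *hh(RNAi)* CNS, against 5760 and 7560 in control CNS, or -1.14 ± 0.18 (SE) in log2 fold change, which limma did not call (adjusted p = 0.880) and DESeq2 did (adjusted p = 5.90e-06). The other nearest contigs carry no gene name in the sources used here. Contig dd_Smed_v4_49327_0_1 was among the nearest to *cali* over both sets of libraries (r = 0.985 over 8 and 0.996 over 6). It had 8.42 and 12.5 normalized reads in *hh(RNAi)* CNS and 466 and 505 in *ptc(RNAi)* CNS. It had 353 and 491 in control CNS and 4.29 and 7.65 in control head fragments. Its log2 fold change in *hh(RNAi)* CNS over control CNS was -5.19 ± 0.39 (SE, limma adjusted p = 0.128, not called), and over *ptc(RNAi)* CNS it was -5.46 ± 0.33 (SE, adjusted p = 0.0268, called lower). Contig dd_Smed_v4_954_0_1 was among the nearest to *cali* over the 8 libraries (r = 0.988) and to *if-1* over the 6 (r = 0.993). It averaged 345 normalized reads in *hh(RNAi)* CNS, 791 in *ptc(RNAi)* CNS, 707 in control CNS and 201 in control head fragments. The 6 contigs most like either gene averaged 1.22-fold to 40.4-fold lower in *hh(RNAi)* CNS than in control CNS, a direction that their choice by r largely fixes.

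The 7 contigs with the lowest r had averages in *hh(RNAi)* CNS of between 1.05 and 1.76 times those in control CNS, a direction that is again largely fixed by their choice. Contig dd_Smed_v4_6537_0_1 had the lowest r with *if-1* over both sets (-0.992 over 8 and -0.983 over 6). It averaged 299 normalized reads in *hh(RNAi)* CNS, 242 in *ptc(RNAi)* CNS, 244 in control CNS and 431 in control head fragments. Contig dd_Smed_v4_7842_0_1 had the lowest r with *cali* over the 8 libraries (-0.959), averaging 313 normalized reads in *hh(RNAi)* CNS, 244 in *ptc(RNAi)* CNS, 262 in control CNS and 342 in control head fragments. Neither was called by limma in the 3 CNS comparisons.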

How the data were processed

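Sequenced mRNA reads were, per the study's methods, trimmed by 5 bases, aligned by the authors with Bowtie2 to the Dresden transcriptome assembly with the best single alignment kept, and counted with Samtools. Versions were not given in the sources used here. The methods name DESeq2 for the comparisons, although the column names are those of DESeq. The signal columns deposited by the authors hold, in 3 tables, the average over a group's libraries of reads divided by size factors. The authors' 4 columns of fold changes and p-values per table hold their own comparisons and were not used.

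In the CNS against head table the first group was identified as head fragments, because the solved reads of the second equalled the control CNS reads of the *hh* table in 38621 of 38634 rows, against the order in the table's name. Every mean adds whole numbers of 2 fixed steps, 1 per library, and solving for those numbers gave the reads. Of the means above 0, 100% were solved (largest relative misfit 1.73e-09). In at most 84 contigs, with means of 13685 or more, several solutions existed and the most even was used. Control CNS reads were the same in the *hh* and *ptc* tables. A row naming no contig held 0 reads and was dropped. Duplicates differed by more than sampling noise in each group, so all 8 libraries were kept.

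limma 3.58.1 (R 4.3.3, trended empirical Bayes) tested log2(normalized reads + 1) of contigs averaging at least 100 normalized reads in the groups compared, fitted on the whole table. Alternatives on the recovered reads used edgeR 4.0.16 (quasi-likelihood test with TMM factors) and DESeq2 1.42.0. *hh(RNAi)* and *ptc(RNAi)* CNS were scaled by their own median-of-ratios factors, as were the 8 libraries for levels. The limma, edgeR and DESeq2 fits were tried on simulated reads with known changes, modelled on the *hh(RNAi)* CNS and control CNS libraries only. Each simulation gave all contigs the same spread, so it cannot decide between the tools where they differ here. Python 3.11.15 with scipy 1.17.1 did the other steps. Counting errors and intervals cover counting error or library spread only.

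Members and lists were chosen with earlier results of these data known. Named contigs were *if-1* and *cali*, the Hh pathway list, *chat*, *pc2*, *syn*, *1020HH*, *gapdh*, for each gene the 2 contigs with the highest and lowest r over 8 and over 6 libraries, and list contigs called in the RNAi comparisons. Of unannotated contigs 2 were named in each direction. No RPKM was computed, since contig lengths were not used here.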

Additional observations from a re-analysis of the deposited data

Results flagged for a closer look

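The response of *cali* differed between *hh* RNAi and *ptc* RNAi by a test of the difference itself. The effect in *hh(RNAi)* CNS minus the effect in *ptc(RNAi)* CNS was -3.07 on the log2 scale (limma adjusted p = 0.0268). Both *hh(RNAi)* libraries lay below both *ptc(RNAi)* libraries, as in 19.5% of tested contigs. *cali* entered the study through its response in these same libraries, so this p-value is not independent evidence. Over the alternatives the adjusted p ranged from 2.62e-55 to 0.0608.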

How the results depend on the processing

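No paired analysis was possible because the solved libraries carry no replicate number. The log2 fold changes of *if-1* and *cali* kept their direction in every comparison and alternative tried, except *if-1* in *ptc(RNAi)* CNS over control CNS, which was -0.081 without library a of control CNS. The causes were not tested. Against control CNS, *if-1* in *hh(RNAi)* CNS became called with DESeq2 (-2.06) and in 1 fit over all libraries (-2.10), and *cali* lost its call with total reads scaling (-2.73). Leaving out 1 library gave -2.37 to -1.79 for *if-1* and -2.89 to -2.71 for *cali*. Over *ptc(RNAi)* CNS, *if-1* became called with DESeq2 (-2.26), in 1 fit over all libraries (-2.27), and in 1 over the 6 CNS libraries (-2.30), and *cali* lost its call with no minimum (-3.07). Leaving out 1 library gave -2.53 to -2.08 for *if-1*; such fits set 1 library against 2, take their spread from 1 pair of duplicates and assume that the lone library varies alike, so p-values from them are not read as calls gained. In *ptc(RNAi)* CNS over control CNS, leaving out 1 library gave -0.081 to 0.49 for *if-1* and -0.17 to 0.27 for the log2 *cali* minus *if-1* difference, which turned to -0.031 without library a of *ptc(RNAi)* CNS and -0.17 without library b of control CNS.

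Counts of called contigs moved more. For *hh(RNAi)* CNS over control CNS, 1 became 2 with no minimum, 2 with edgeR, 37 with DESeq2 and 0 to 13 without 1 library. For *ptc(RNAi)* CNS over control CNS, 41 became 0 with no minimum, 6 with a minimum of 1000, 126 with DESeq2 and 7 to 115 without 1 library. For *hh(RNAi)* over *ptc(RNAi)* CNS, 13 became 0 with no minimum, 8 with a minimum of 1000, 8 with edgeR, 156 with DESeq2 and 27 to 267 without 1 library. For control CNS over control head fragments, 7419 became 17925 with no minimum and 1307 with a minimum of 1000. The rank of *cali* in the order of *if-1* moved to 3 by Spearman and 5 over the 6 CNS libraries, and that of *if-1* in the order of *cali* to 2 and 5. With 2 libraries a group, the spread between duplicates sets the precision for these genes in the CNS groups more than depth does. In control head fragments the 2 are closer. For *if-1* the SD there was 5.88% of the mean, beside counting errors of 4.71% and 4.93%.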
